A study of Homo sapiens with 2 samples.

Results

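Beta-catenin (CTNNB1) and 9 genes that report on its activity, AXIN2, LGR5, ASCL2, NKD1, RNF43, ZNRF3, TCF7, LEF1 and SOX4, were followed in SW48 cells with and without AKBA, which stands for acetyl-11-keto-β-boswellic acid, a compound from frankincense resin. The genes were chosen by name, with earlier results of these data known. Every array probe whose annotation gives 1 of these symbols was taken, each probe on its own. This gave 17 of the 48803 probes on the array, for 9 of the 10 genes; TCF7 is not analysed here because no probe was annotated to it in the table used. SW48 is an established human colorectal cancer cell line, grown in Iscove's medium with fetal bovine serum. The AKBA culture received the compound at 20 µM for 6 days. The control is given as dimethyl sulfoxide vehicle at 0.1% in the treatment protocol and as not treated in the source name, so the vehicle and the compound cannot be told apart if the second label holds. Each group was 1 Illumina bead array, so differences have no replicate check and no p-value, and higher and lower describe these 2 arrays.

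In the canonical Wnt pathway, a destruction complex built on APC and the axins marks beta-catenin for degradation, and a Wnt ligand bound to Frizzled and LRP receptors stops that complex. Stable beta-catenin enters the nucleus, binds the TCF and LEF factors on DNA and switches on target genes, several of which act back on the pathway as inhibitors. The crypt stem cells of the intestine depend on this program, and most colorectal cancers carry a mutation that keeps it on. SW48 is known to carry an activating substitution in beta-catenin itself, in the region that the destruction complex phosphorylates. Since beta-catenin is controlled mainly as a protein, its messenger RNA is not a measure of pathway activity, whereas AXIN2 messenger RNA is commonly used as one.

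The promoter windows below show the gene with the largest difference among the detected probes, SOX4, beside the pathway's effector CTNNB1 and the ligase gene RNF43, whose differences were near 0. Each is the 250 bases before the annotated start, on the gene's own strand, from RefSeq in GRCh38.p14, for SOX4 at chr6:21593501-21593750 on the plus strand, for CTNNB1 at chr3:41199255-41199504 on the plus strand and for RNF43 at chr17:58417535-58417784 on the minus strand. Capitals mark CCAAT and TATAA on either strand.
SOX4: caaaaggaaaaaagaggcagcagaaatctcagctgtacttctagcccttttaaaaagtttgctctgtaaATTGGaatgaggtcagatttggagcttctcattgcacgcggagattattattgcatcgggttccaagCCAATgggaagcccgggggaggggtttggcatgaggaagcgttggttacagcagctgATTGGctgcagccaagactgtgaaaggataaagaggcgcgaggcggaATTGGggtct
CTNNB1: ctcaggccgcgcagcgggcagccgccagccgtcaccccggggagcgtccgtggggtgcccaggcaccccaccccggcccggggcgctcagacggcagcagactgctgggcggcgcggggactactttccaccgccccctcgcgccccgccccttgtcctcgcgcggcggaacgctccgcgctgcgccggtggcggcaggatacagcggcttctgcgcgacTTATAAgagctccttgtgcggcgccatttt
RNF43: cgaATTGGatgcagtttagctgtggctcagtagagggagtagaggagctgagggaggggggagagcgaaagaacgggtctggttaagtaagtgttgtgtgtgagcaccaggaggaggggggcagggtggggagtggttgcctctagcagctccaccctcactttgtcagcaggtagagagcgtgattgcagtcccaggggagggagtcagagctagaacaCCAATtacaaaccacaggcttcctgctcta
SOX4 held 4 CCAAT words and RNF43 held 2, while CTNNB1 held none and had TATAA in both orientations, which overlap in 1 stretch 30 bases before the start. Of all 35116 promoter windows of that length, 32.0% held CCAAT and 18.9% TATAA on either strand. The TCF and LEF core CTTTGAT, searched on both strands, was in none of the 7 windows available for 5 of the 10 genes. It was in 2.26% of all windows, so 7 windows are too few to set the members apart. Those windows were of CTNNB1, LEF1, TCF7, SOX4 and RNF43. AXIN2, ZNRF3, ASCL2, NKD1 and LGR5 had no window and were not searched. The variant CTTTGTT was in 1 of the 7, a window of TCF7, starting 50 bases before that annotated start on the opposite strand, and in 4.50% of all windows. CTNNB1 was the richest in CpG dinucleotides of the 3 windows printed, with 34, against 8 in SOX4 and 4 in RNF43. These matches describe the letters of the windows and show no binding.

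The control array was the brighter one, with a mean deposited signal of 425 against 365 on the AKBA array. Probes with a detection p under 0.01 against the negative control beads counted as detected, 12389 on the control array and 11329 on the other. The lowest detected signals were 138 and 141. Of the 12492 probes detected on at least 1 array, 88.4% had the higher deposited signal on the control array, so deposited signals alone do not give a direction. Log2 differences, AKBA minus control, were therefore taken after background correction and quantile normalization, which left the median of these probes at -0.01. Of 12 colonic epithelial markers, 6 were detected on both arrays (EPCAM, KRT8, KRT18, KRT19, CDH1 and CDX2), and 6 on neither (KRT20, CDX1, VIL1, CDH17, LGALS4 and GPA33). Markers of fibroblasts, 6 in all, and of endothelium, 4 in all, were on neither array; of 5 leukocyte markers with a probe, CD68 and LYZ were detected on both arrays and the defining PTPRC and CD3E on neither. CD14 was also on neither array. The summed deposited signal of the 5 leukocyte markers, undetected ones included, was 881 in the control and 1036 with AKBA. Most of it was CD68, at 472 and 610, with LYZ at 147 and 150, close to the limit. Being deposited signals in a culture of a single line, these sums do not measure leukocytes. After normalization, the detected epithelial markers stood at 0.26 (EPCAM), 0.35 (KRT8), 0.59 (KRT18), 0.43 (KRT19), 0.03 (CDH1) and -0.40 (CDX2). CD68 stood at 0.77, larger in size than any member difference below, and LYZ at 0.38. The part of these markers in the differences below was not tested.

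Of the 17 member probes, 7 were detected on both arrays, for 6 genes, and 10 on neither; no member probe was detected on 1 array only. All 7 detected probes, those of AXIN2, ZNRF3, SOX4, ASCL2, RNF43 and 2 of CTNNB1, stood below 0 on the log2 scale, where 51.6% of all detected probes did. Because the list was chosen with earlier results known, such comparisons are descriptions and not tests. The 7 probes divided into a lower set, SOX4, ZNRF3 and AXIN2 at -0.45 to -0.59, and a set near 0, ASCL2, RNF43 and both CTNNB1 probes at -0.01 to -0.14. The median over the 7 was -0.14, against -0.01 over all detected probes; CTNNB1 counts there with both probes, and with 1 probe a gene the median over the 6 genes was -0.30, against -0.02 over all detected genes. One of the 7, SOX4, was lower by 1.5-fold or more, where 4.53% of all detected probes were, and none was higher by 1.5-fold, where 3.49% were. None passed 2-fold in either direction, which 0.384% of detected probes did downward and 0.6% upward. In bulk RNA, fewer cells of a type and less RNA per cell cannot be told apart.

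**Figure D1:**
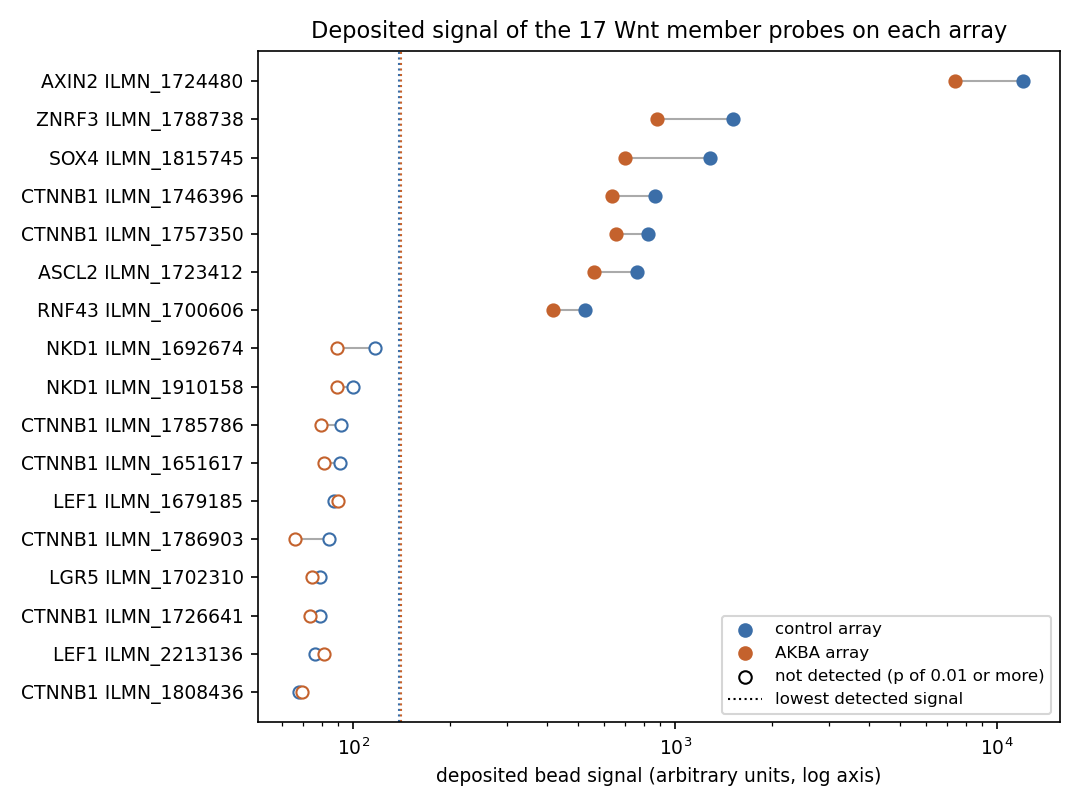
Deposited bead signal of each of the 17 member probes on the control and AKBA arrays, on a log axis; filled points were detected at a p under 0.01, open points were not, and the dotted lines are the lowest detected signals, 138 and 141. The 7 detected probes lie well to the right of those lines and all have the higher signal on the control array, as 88.4% of detected probes do, while the 10 other probes lie to the left of both lines.

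CTNNB1, the effector of the pathway, was measured by 7 probes, of which 2 were detected. Probe ILMN_1746396 had a deposited signal of 865 in the control and 636 with AKBA. Probe ILMN_1757350 had 823 and 653. After normalization the first stood at -0.14 on the log2 scale and the second at -0.03, so the control was 1.10-fold and 1.02-fold higher. The probes differed from each other by 0.11, a range that 73.0% of the 1677 genes with several probes detected on both arrays reached or passed. Both beta-catenin differences were smaller in size than 0.23, the pooled standard deviation between probes of 1 gene on these arrays. That spread does not measure how cultures or arrays vary, which 1 array per group cannot give. The other 5 CTNNB1 probes had signals of 65.7 to 91.7 and detection p of 0.0843 to 0.665. These probes measured nothing above background on either array and give no direction, and the files do not say which part of the transcript each probe targets.

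Of the DNA-binding partners of beta-catenin, LEF1 was measured and not detected. Its probe ILMN_1679185 had signals of 87.2 in the control and 89.4 with AKBA (detection p 0.130 and 0.0659). Its probe ILMN_2213136 had 76.1 and 81.0 (detection p 0.319 and 0.153). Both LEF1 probes were slightly brighter on the AKBA array, but below the detection limit, so no fold is given.

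Of the feedback inhibitors, AXIN2, a scaffold of the destruction complex that beta-catenin itself induces, had by its probe ILMN_1724480 a deposited signal of 12059 in the control and 7408 with AKBA. Both signals were far above the detection limit, so the background correction had little bearing on the difference of -0.45 on the log2 scale, which was -0.45 with no correction at all. The control was 1.37-fold higher. Among all detected probes, 8.02% had a difference as low or lower. When these were split by mean normalized signal into 4 groups of 3123, the standard deviation of the difference was 0.26 in the brightest group and 0.43 in the dimmest; in the brightest, which holds AXIN2, 3.3% were as low or lower and 1.7% passed 1.5-fold downward. The authors' processed intensities for this probe, which scale the arrays to equal means, were 12036 and 8818.

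NKD1, a Dishevelled-binding inhibitor that Wnt signalling induces, was not detected by either of its probes. ILMN_1692674 had a signal of 117 in the control and 89.0 with AKBA (detection p 0.0171 and 0.0685). ILMN_1910158 had 99.6 and 89.2 (detection p 0.0487 and 0.0659). NKD1 was closest to the limit among the undetected members, and on the control array both probes would have passed a limit of 0.05, which neither did on the AKBA array. The share of all probes passing 0.05 is not given here. At 0.01, 25.4% of all probes passed on the brighter control array and 23.2% on the AKBA array. Passing on the control array alone therefore gives no direction for NKD1. No fold is given, because neither array gave a signal above the limit used here.

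RNF43 and ZNRF3 encode related transmembrane ubiquitin ligases that remove Frizzled receptors from the cell surface and are themselves Wnt targets, and they did not share a value. The ZNRF3 probe ILMN_1788738 had a deposited signal of 1513 in the control and 880 with AKBA. Its log2 difference was -0.48, the control 1.40-fold higher, and 7.17% of all detected probes, or 2.79% of the brightest group, were as low or lower. The RNF43 probe ILMN_1700606 had 524 and 419. Its log2 difference was -0.01, and 50.5% of detected probes stood as low or lower, so RNF43 lay in the middle of the array. Without replicates the gap between the ligases was not tested.

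Of the intestinal stem cell genes, ASCL2, a basic helix-loop-helix transcription factor that Wnt signalling maintains in crypt stem cells, was detected and LGR5 was not. The ASCL2 probe ILMN_1723412 had a signal of 763 in the control and 560 with AKBA. Its log2 difference of -0.14 was as low or lower in 32.9% of detected probes, a place well inside the middle of the array. LGR5, the R-spondin receptor that marks those stem cells, had by its probe ILMN_1702310 signals of 78.8 and 74.3 (detection p 0.246 and 0.299). LGR5 messenger RNA was therefore not detectable with this probe in either culture.

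SOX4, a transcription factor with an HMG box that is raised in many colorectal tumours, gave the lowest value. Its probe ILMN_1815745 had a deposited signal of 1287 in the control and 699 with AKBA. The log2 difference was -0.59, the control 1.51-fold higher, and 4.31% of all detected probes were as low or lower. In its own group by brightness, the one next to the brightest, 2.34% were, and 2.4% passed 1.5-fold downward. SOX4 thus sat at the edge of the 1.5-fold limit, and with a normexp offset of 50, no background correction or cyclic loess it stood at -0.57, -0.56 and -0.58, just inside it.

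**Figure D2:**
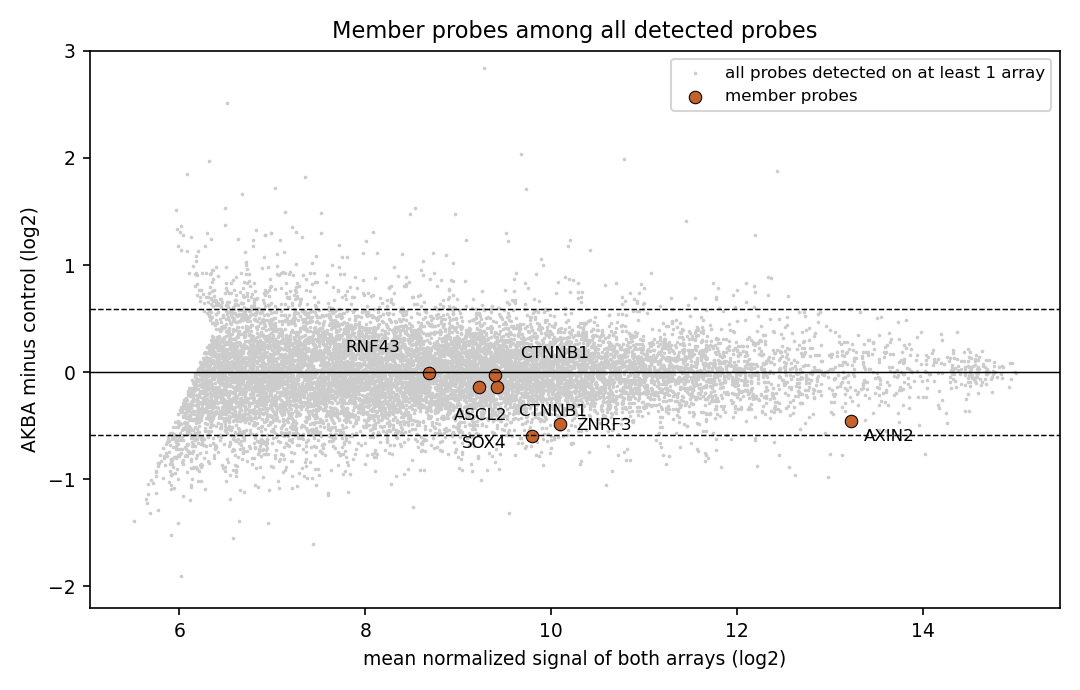
Log2 difference, AKBA minus control, against the mean normalized log2 signal for every probe detected on at least 1 array (grey) and for the 7 detected member probes (orange); the dashed lines mark 1.5-fold. SOX4 lies on the lower dashed line, ZNRF3 and AXIN2 just above it, and the other 4 member probes lie close to 0; AXIN2 sits in the bright range, where few grey points reach its depth.

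The order of the differences from lowest to highest was SOX4, ZNRF3, AXIN2, ASCL2, the CTNNB1 probe ILMN_1746396, the CTNNB1 probe ILMN_1757350 and RNF43. Neighbours within the lower set were 0.03 to 0.11 apart and those within the upper set 0.003 to 0.11, all less than the 0.23 by which probes of a single gene spread, so the order inside each set is not resolved. The sets were divided at the widest step, the 0.31 from AXIN2 at -0.45 to ASCL2 at -0.14, after the values were seen. They are therefore a way of describing the values, and the step is no support for them. The 0.23 is a standard deviation for single probes, and a gap between probes varies more than a single probe does. A comparison with 0.23 therefore does not show that the step of 0.31 is resolved either. Both sets mix roles, the lower one with an inhibitor, a ligase and a transcription factor, the upper one with the effector, a ligase and a transcription factor.

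**Figure D3:**
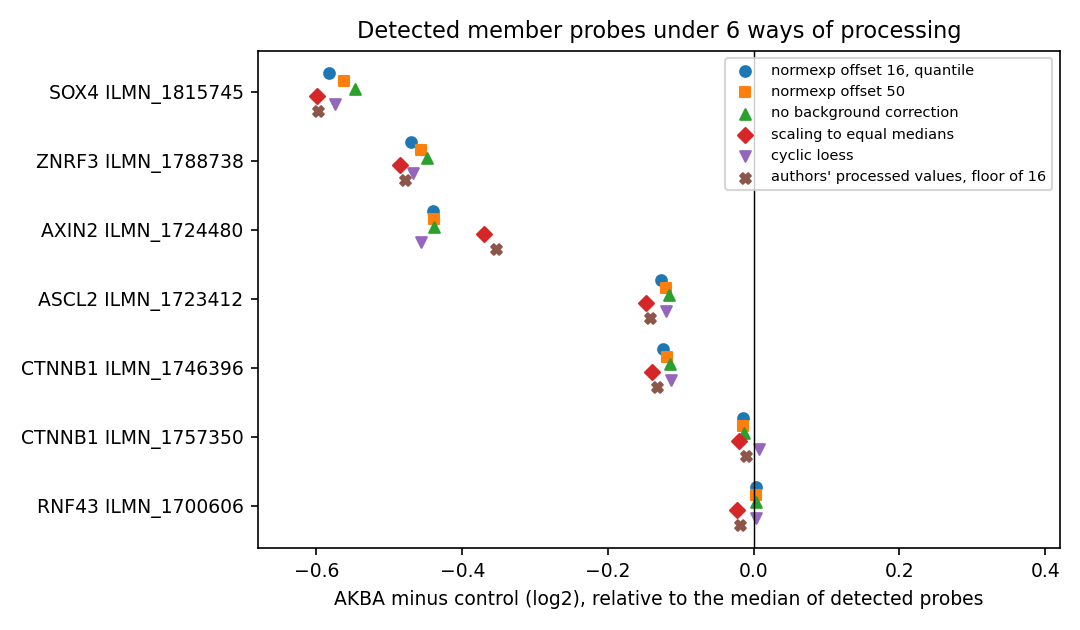
Log2 difference of the 7 detected member probes under 6 ways of processing, each relative to the median of all detected probes under it. SOX4 stays between -0.60 and -0.55, ZNRF3 between -0.48 and -0.45 and AXIN2 between -0.46 and -0.35, while RNF43 and the CTNNB1 probe ILMN_1757350 fall on both sides of 0.

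The wider pathway was described with 123 further genes in 8 role groups, each gene by its brightest probe. Of 120 with a probe, 66 were detected on at least 1 array, 57 of them on both. Of all 18852 genes with a probe, 8639 were detected on at least 1 array, which stands beside the counts of each group below. Of the 66, 40 stood below 0 (60.6%), where 53.5% of the 8639 detected genes did, and the median was -0.12 against -0.02 over all detected genes. By 1.5-fold, 3 were lower and 3 higher, where 4.32% and 2.91% of detected genes were. These counts take genes detected on 1 array at their normalized value. With such genes at the bound of their difference, which sets the undetected side at the lowest detected normalized signal of that array or at its own, whichever is higher, 2 were lower, FGF20 and PTPRO, and 2 higher, VEGFA and WNT16, where 2.81% and 2.64% of detected genes were. BTRC and CTNNBIP1 passed 1.5-fold at their normalized values but not at their bounds. A bound rests on 1 array per group and on normalized values near the detection limit, so it is no guaranteed minimum of a change.

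Other target genes, outside the 9 reporters, had 21 detected of 30 with a probe, 13 below 0 and 8 above, with a median of -0.12. FGF20, a fibroblast growth factor gene, was lowest, with signals of 719 in the control and 367 with AKBA and a log2 difference of -0.74. Its second detected probe gave -0.97. PTPRO, a receptor tyrosine phosphatase, had signals of 1749 and 897 and a log2 difference of -0.67, with -0.34 by its second probe. These were the targets of the list that stood as low as SOX4. In the other direction, VEGFA, the angiogenic growth factor, had signals of 311 and 379 and was 1.62-fold higher with AKBA. The classical targets fixed by the naming rule given below went different ways. CCND1, the cyclin D1 gene, stood at -0.28 with signals of 10055 and 6863, and SOX9, a crypt transcription factor, at -0.31 with 1356 and 878. MYC stood at 0.20 with signals of 3440 and 3192 and at 0.40 by its second probe, and CD44, the hyaluronan receptor, at 0.08 with 1698 and 1419 and at 0.58 by its second. EPHB2 had no probe in the table used. Of the other targets, all named after their values were seen, TNFRSF19 stood at -0.39 and SP5 at -0.23. BIRC5 stood at -0.43, and at -0.41 by its second probe. JAG1 stood at 0.58 and ETS2 at 0.47. The genes named do not give the make-up of the group, which had 13 below 0 and 8 above.

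Among TCF partners and coactivators, 13 of 16 were detected, 9 below 0, with a median of -0.26, the lowest of the 8 groups. CHD8, a chromatin remodeller that restrains beta-catenin, stood at -0.43 with signals of 594 and 369, the corepressor TLE2 at -0.42 with 447 and 284, and the coactivator PYGO2 at -0.40 with 283 and 191. These 3 were the largest differences among genes detected on both arrays and do not give the make-up of the group. Of its other genes, all named after their values were seen, SMARCA4 stood at -0.38, CREBBP at -0.26 and BCL9 at -0.23. CBY1 stood at 0.16, TLE1 at 0.13 and EP300 at 0.06. BCL9L and TLE3, detected on the control array only, were below 0 at their normalized values. TCF7L2, the main TCF of the colon epithelium, was detected on the control array only, with signals of 184 and 141 (detection p 0.00395 and 0.0105). The AKBA signal lay only just under the lowest detected there. The control was 1.20-fold higher both by the bound and at the normalized values, with signals close to the limit. CTNNBIP1, an inhibitor that blocks beta-catenin from TCF and named after its values were seen, was detected on the AKBA array only, with signals of 121 and 145. It was 1.36-fold higher there by its bound, with both signals close to the limit.

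In the Dishevelled and destruction complex group, 11 of 16 were detected, 8 below 0, with a median of -0.14. AXIN1, the constitutive scaffold related to AXIN2, stood on the other side from it, at 0.38, with signals of 1375 in the control and 1395 with AKBA, 1.30-fold higher after normalization. DVL2, a Dishevelled gene, stood at 0.31 with 424 and 412, and AMER1, an APC-binding membrane protein gene, at -0.30 with 591 and 397. The kinase gene GSK3B stood at -0.02 with signals of 726 and 571. APC was not detected by its probe, with signals of 75.3 and 65.9. BTRC, the ubiquitin ligase adaptor that recognises phosphorylated beta-catenin and named after its values were seen, was detected on the control array only, at 146 against 104, and its bound was under 1-fold, so no fold is given.

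Receptors had 8 of 15 detected, evenly split, with a median of 0.01. The co-receptor LRP5 stood at -0.32 with signals of 1002 and 656, FZD2 at 0.20 with 381 and 348 and FZD6 at 0.19 with 384 and 348. Junction partners of beta-catenin had 3 of 4 detected. E-cadherin (CDH1), which holds beta-catenin at the membrane, stood at 0.03 with 2159 and 1772, alpha-catenin (CTNNA1) at -0.23 with 3687 and 2544 and plakoglobin (JUP) at -0.13 with 1682 and 1223. The second CTNNA1 probe gave 0.07, and the second JUP probe detected on both arrays gave 0.01, so the probes of neither gene shared a direction. A further JUP probe and a second LRP5 probe were detected on the control array only. At their normalized values they gave -0.49 and 0.12, so the LRP5 probes did not share a direction either.

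Of the ligand and secretion genes, 15 of 20 with a probe were undetected, where 10213 of all 18852 genes were. WLS, the carrier of Wnt ligands through the secretory route, stood at -0.02 by its brightest probe with signals of 1179 and 929, while its other 4 detected probes ranged from -0.42 to 0.47. WNT10B stood at 0.34 with 148 and 149, close to the limit on both arrays. WNT16, named after its values were seen, was detected on the AKBA array only, at 156 against 123. It was 1.53-fold higher by its bound, which also rests on signals close to the limit. R-spondins and the LGR receptors had 2 of 6 detected, RSPO3 at 0.50 with 139 and 149 and LGR6 at 0.14 with 170 and 155, again close to the limit, where sizes are uncertain. Of 13 secreted antagonists and their receptors, 3 were detected. The Dickkopf receptor gene KREMEN1 stood at -0.47 with 248 and 166, KREMEN2 at -0.12 with 697 and 518, and NOTUM, a secreted Wnt deacylase that the pathway induces, at 0.03 with 741 and 604 and at 0.39 by its second probe.

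**Figure D4:**
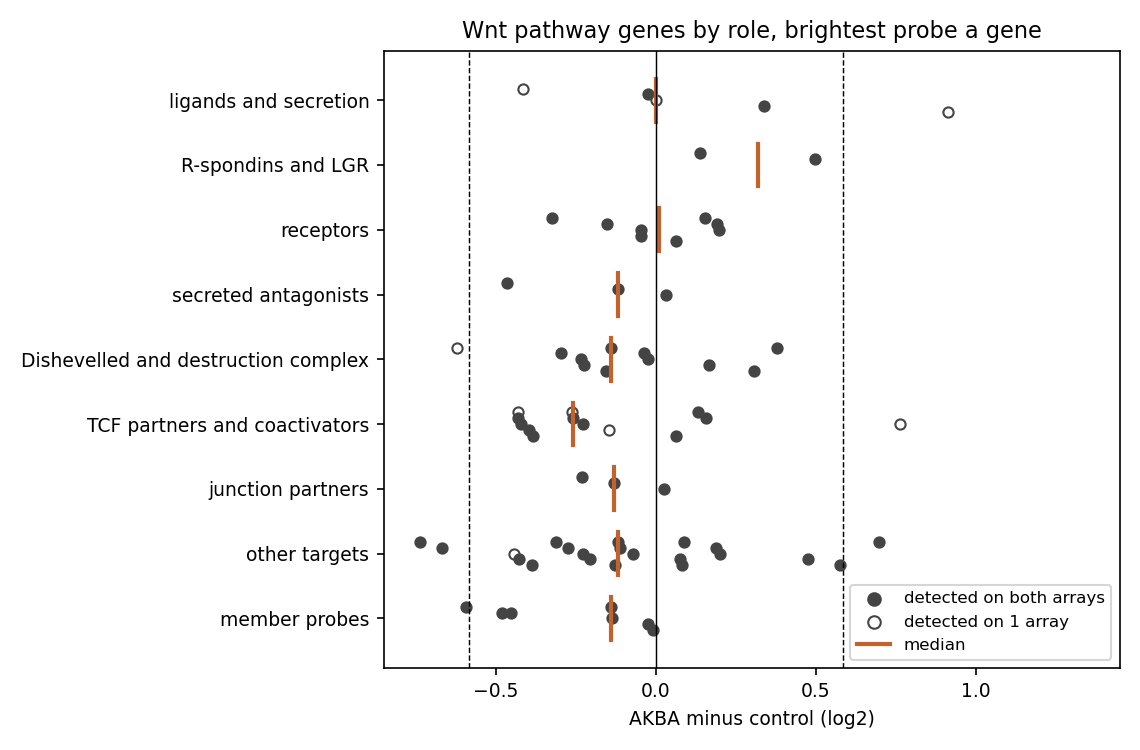
Log2 difference, AKBA minus control, of each detected gene of the wider Wnt list by role group, with the 7 detected member probes in the bottom row; filled points were detected on both arrays, open points on 1, the orange bars are medians and the dashed lines mark 1.5-fold. Medians run from -0.26 for TCF partners and coactivators to 0.32 for the 2 detected R-spondin and LGR genes, and every role group of the wider list with over 3 detected genes has points on both sides of 0.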

How the data were processed

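Per the labels' protocols, SW48 total RNA was purified on columns and hybridised to Illumina bead arrays as labelled cRNA. The deposited signal intensity is a mean bead signal, neither background subtracted nor scaled, as the values show, and each deposited detection p-value compares it with the negative control beads of its array (steps correspond to 759). The authors' processed intensity was a linear function of the deposited signal on each array, with slopes of 1.00 and 1.20. No source used here names the software. Signals were normalized with the neqc steps of limma 3.58.1 in R 4.3.3, which infer the background from the detection p, apply normexp with an offset of 16, normalize by quantiles and take log2, and were tested on simulated data. A platform annotation table named 1 gene for 28098 of 48803 probes, updated through Entrez identifiers of GRCh38.p14 for 28059. Figures used Python 3.11.15 and matplotlib 3.10.9.

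A probe counted as detected at a p under 0.01, and over all probes detected on at least 1 array, folds of 1.5 and 2 were counted. With 1 array per group nothing was tested, and that number limits the precision. The members and all gene lists were chosen with earlier results of these data known. Genes of the wider list were named by a rule: the 3 largest differences per group among genes detected on both arrays, and APC, AXIN1, GSK3B, TCF7L2, CDH1, MYC, CCND1, CD44, EPHB2 and SOX9. Likeness of patterns is not defined over 2 arrays, so no genes of like pattern are named. The alternatives were an offset of 50, no background correction, equal medians, cyclic loess, the authors' processed values with a floor of 16, other limits of detection, and 1 value or a mean per gene.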

Additional observations from a re-analysis of the deposited data

How the results depend on the processing

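All 7 detected member probes kept their place within 0.23 (log2), the spread between probes of 1 gene, under the 5 alternative scalings, each taken relative to the median of detected probes; that median moved to -0.30 with scaling to equal medians. Relative to it, SOX4, ZNRF3, AXIN2, ASCL2 and the CTNNB1 probe ILMN_1746396 stood below 0 in 6 of 6 settings, the CTNNB1 probe ILMN_1757350 in 5 and RNF43 in 2. The count of member probes lower by 1.5-fold was 1, and it was 0 with an offset of 50, with no background correction and with cyclic loess, both plainly and relative to the median, because SOX4 lies at the limit; under the report's own processing it is also 0 relative to the median, where SOX4 stands at -0.58. It was 3 with scaling to equal medians, which shifts all probes down, and 1 relative to the median there. Without a filter on detection, 14 of 17 member probes stood below the median in place of 6 of 7, which adds 10 probes at background. The median of the R-spondin and LGR group was -0.0076 without a filter in place of 0.32, and that of ligands and secretion 0.34 at a detection p under 0.05 in place of 0.0014, with 9 genes in place of 5. Relative to the median of all detected probes or genes under each alternative, the other medians of groups and members moved by less than 0.23; plainly, scaling to equal medians took that of the member probes from -0.14 to -0.45. With 1 probe a gene it was -0.30. Genes of the wider list past 1.5-fold were 3 lower and 3 higher, or 2 and 2 at the bounds, a setting chosen after seeing the data. No paired analysis was possible because each group has 1 array, and for the same reason no array could be left out. Array signal over background limits NKD1, LEF1, LGR5 and 5 CTNNB1 probes, for which no difference can be given.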
